A study of Mus musculus with 6 samples.

Results

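Metformin-treated MC3T3-E1 cells were compared with cells in osteogenic medium alone for 38 interferon-stimulated genes, out of 54532 genes in the deposited table. The 38 genes were chosen by name, as interferon-stimulated genes together with Irf and Stat factors and RNA sensors of the response, and not by their values, although earlier results of these data were known when the list was drawn up. MC3T3-E1 is a clonal mouse calvarial pre-osteoblast line. RNA was sequenced from 6 samples. In 3 the cells were kept for 3 days in osteogenic medium, and in the other 3 for the same time in osteogenic medium with 0.2 mM metformin, a biguanide glucose-lowering drug. The samples of a group are called biological replicates, but it is not said whether they were separate cultures, so the p-values below measure the spread between these samples. Cells outside osteogenic medium were not analysed here.

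Interferon-stimulated genes are the output of the interferon response. Type I interferon binds its receptor, the kinases JAK1 and TYK2 phosphorylate STAT proteins, and the complex ISGF3 forms, which contains STAT2 and IRF9. ISGF3 binds the interferon-stimulated response element (ISRE) in the promoters of the induced genes, while interferon gamma acts mainly through a different element, the gamma-activated site (GAS). The products block viral replication, sense foreign RNA, cut or modify proteins, present antigen, or feed back on the pathway, and many of these genes, Irf7, Irf9 and Stat2 among them, are themselves induced. Osteoblasts carry interferon receptors and can respond.

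Of the 38 genes, 19 were lower with metformin, 3 were higher, 9 were tested without passing the threshold and 7 lay under the limit for testing. A gene was tested if its mean over the 6 samples was at least 0.5 FPKM (fragments per kilobase of gene length, scaled to library size, the unit of the table), and it was called at an adjusted p under 0.05 in a limma fit of log2(FPKM + 1) over all 12681 such genes. Over all tested genes 9.28% were called lower and 13.2% were called higher. The median log2 fold change of the 31 tested interferon-stimulated genes was -0.58, from -1.72 for Oas2 to 0.59 for Psmb9, against 0.0053 for all tested genes. In 23 of the 31 every metformin sample lay below every sample in osteogenic medium, and in 4 every metformin sample lay above. Among all tested genes these shares were 20.5% and 23.6%. Of the 31 tested genes, 4 (Ifit3b, Oas1a, Oasl2 and Gbp3) had a metformin mean under 0.5 FPKM and passed through their level in osteogenic medium. This was the case in the other direction for 0 genes. In a fit on the reads of all 17468 genes with at least 10 reads over the 6 samples, chosen after the values were seen, each of the 38 genes was tested, 24 were lower and 3 were higher, while 7.19% and 10.5% of all genes were.

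The libraries held between 18399861 and 22111790 reads assigned to genes. The first osteogenic medium sample stood apart, with correlations of 0.96 and 0.952 to the other samples of its group against 0.988 between those, and its deviation followed GC content across genes (Spearman rho -0.668, across genes, which are not independent replicates). Osteoblast markers were all present. Of 8, Col1a1 and Col1a2 were higher and Ibsp and Spp1 lower with metformin, and Runx2, Sp7, Alpl and Bglap were not called. The summed level of the 8 was 10000 to 11750 FPKM in osteogenic medium and 6793 to 7184 FPKM with metformin. Spp1 was the largest part, with means of 7703 FPKM in osteogenic medium and 2704 FPKM with metformin, and Ibsp had 814 and 265 FPKM. The mean of Col1a1 rose from 1339 to 2487 FPKM and that of Col1a2 from 970 to 1444 FPKM. Of 8 leukocyte markers, Itgam and Cd3e had no read, Ptprc had at most 6 and Adgre1 at most 1 read in a sample, Cd68 was lower, and the sum, mostly Lyz2, was 15.3 to 25.98 FPKM in osteogenic medium and 27.1 to 30.9 FPKM with metformin. The 3 endothelial markers together were at 0.0589 to 0.106 FPKM and 0.0243 to 0.121 FPKM, and none was tested. The part of the markers' changes in the results below was not tested. In bulk samples such as these, fewer responding cells and less RNA per cell cannot be told apart.

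The promoters of several of these genes hold the letters that ISGF3 is known to bind. They are shown for genes that were lower with metformin and for Gbp2, which was higher, to let the same element be seen beside opposite changes. The windows are from RefSeq (GRCm38.p6), 5′ to 3′ on the strand of the gene and before its RefSeq start, with the ISRE core in capitals. Overlapping cores run together. They lie at chr4:156200855-156200916 (minus strand) for Isg15, chr19:34640765-34640833 (plus) for Ifit1, chr19:34583353-34583436 (plus) for Ifit3, chr5:120907526-120907565 (minus) for Oas1a, chr8:71537567-71537622 (minus) for Bst2, chr10:128270256-128270305 (plus) for Stat2, chr3:142559988-142560025 (plus) for Gbp3 and chr3:142620594-142620623 (plus) for Gbp2. For Gbp2 the deposited start of 142620602 lies upstream of the RefSeq start, so that its core falls just inside the gene by the deposited coordinates.
Isg15: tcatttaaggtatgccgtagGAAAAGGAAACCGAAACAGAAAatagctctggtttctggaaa
Ifit1: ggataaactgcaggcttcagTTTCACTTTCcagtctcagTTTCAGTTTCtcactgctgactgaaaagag
Ifit3: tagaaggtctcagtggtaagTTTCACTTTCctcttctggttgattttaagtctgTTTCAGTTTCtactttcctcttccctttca
Oas1a: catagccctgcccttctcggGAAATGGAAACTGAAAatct
Bst2: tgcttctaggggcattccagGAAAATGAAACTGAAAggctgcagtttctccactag
Stat2: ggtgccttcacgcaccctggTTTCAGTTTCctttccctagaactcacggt
Gbp3: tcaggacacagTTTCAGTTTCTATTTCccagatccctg
Gbp2: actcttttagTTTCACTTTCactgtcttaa

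The ISRE core was searched as GAAANNGAAA, or TTTCNNTTTC on the other strand, and the GAS core as TTCNNNGAA, which reads the same on both strands, in the 250 bases before each RefSeq start. The 2 motifs may overlap each other. Promoters were at hand for 30 of the 38 genes and not for Oas2, Mx1, Mx2, Usp18, Dhx58, Rtp4, Parp9 and Parp14. The ISRE core was found in 12 of the 30 (40%), in 3 overlapping copies in Isg15 and in more than 1 copy in 7 genes. Of all 27025 genes with a promoter, 936 (3.46%) held it. The GAS core was found in 6 of the 30 (20%), in Bst2, Gbp7, Ifit2, Irf1, Oas1a and Psmb8, and in 2197 (8.13%) of all genes. The windows of Ifit3 and of its copy Ifit3b differed at 0 of 84 bases.

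**Figure D1:**
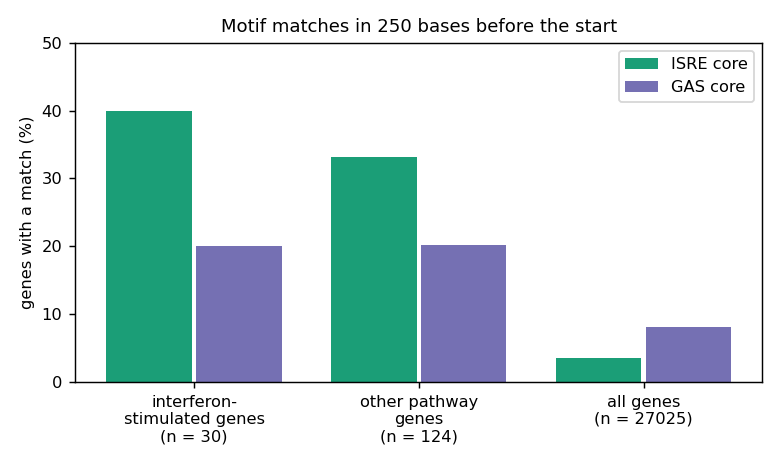
Bars give the percentage of genes with an ISRE or GAS core in the 250 bases before the start, for 30 interferon-stimulated genes, 124 other genes of the interferon pathway and all 27025 genes with a RefSeq promoter. The ISRE core was in 40%, 33.1% and 3.46%, and the GAS core in 20%, 20.2% and 8.13%.

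Of the 10 tested genes with an ISRE core, 7 were lower and 1, Gbp2, was higher, with a median log2 fold change of -0.99. Of the 15 tested genes with a promoter that lacked the core in this window, 6 were lower and 2 higher, with a median of -0.22. The second group includes Irf7, Irf9 and Oasl2, which were lower. Oas2, Rtp4, Usp18, Dhx58, Parp9 and Parp14 were lower too, but no promoter was at hand for them, so they stand in neither group. The contrast between the groups leaves them out. Among all tested genes 9.28% were lower and 13.2% higher. Outside the interferon genes, of 244 tested genes with the core that stand on neither list, 29 (11.9%) were lower and 31 (12.7%) higher, with a median of 0.015. These are descriptions of letters in a window, and no binding was measured.

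Among the transcription factors of the response, 4 of 5 were lower. Irf9, the DNA-binding subunit of ISGF3, stood at 6.21, 5.28 and 5.84 FPKM in osteogenic medium and 1.72, 1.74 and 1.84 FPKM with metformin. The metformin samples were all far below the others, 3.27-fold lower on the means (log2 fold change -1.29, SE 0.09, adjusted p = 0.000199). Stat2, its partner in ISGF3, was at 8.92, 7.06 and 7.598 FPKM in osteogenic medium and 3.62, 3.55 and 3.46 FPKM with metformin, and the groups did not overlap (log2 fold change -0.96, SE 0.10, adjusted p = 0.000936). Irf7, the factor that amplifies interferon production and is itself induced, was at 2.44, 2.66 and 3.09 FPKM in osteogenic medium and 0.721, 0.766 and 0.734 FPKM with metformin. This was 3.69-fold lower on the means with metformin (log2 fold change -1.096, SE 0.10, adjusted p = 0.000539). Irf3, the constitutive factor that starts interferon transcription, was at 12.9, 16.3 and 18.9 FPKM in osteogenic medium and 10.7, 10.8 and 10.04 FPKM with metformin. Its samples in osteogenic medium were widely spread, its decrease was smaller (log2 fold change -0.55, SE 0.14, adjusted p = 0.0328), and it passed the threshold in only 1 of the 6 fits that left out 1 replicate: the adjusted p was 0.0591 and 0.0978 without the third and the second osteogenic medium sample and 0.105 to 0.121 without a metformin sample. Irf1, which is induced mainly by interferon gamma, was at 4.06, 4.06 and 4.86 FPKM in osteogenic medium and 3.88, 4.59 and 4.34 FPKM with metformin. The groups overlapped and Irf1 was not called (log2 fold change -0.02, SE 0.10, adjusted p = 0.933).

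Some of these genes overlap others, and whether the counting used strand is not given in the sources used here. Irf9 overlaps Rnf31 on the same strand, Irf7 overlaps Phrf1 and Irf3 overlaps Bcl2l12 on the opposite strand. None of the 3 partners was called, with log2 fold changes of -0.07, 0.08 and 0.07.

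**Figure D2:**
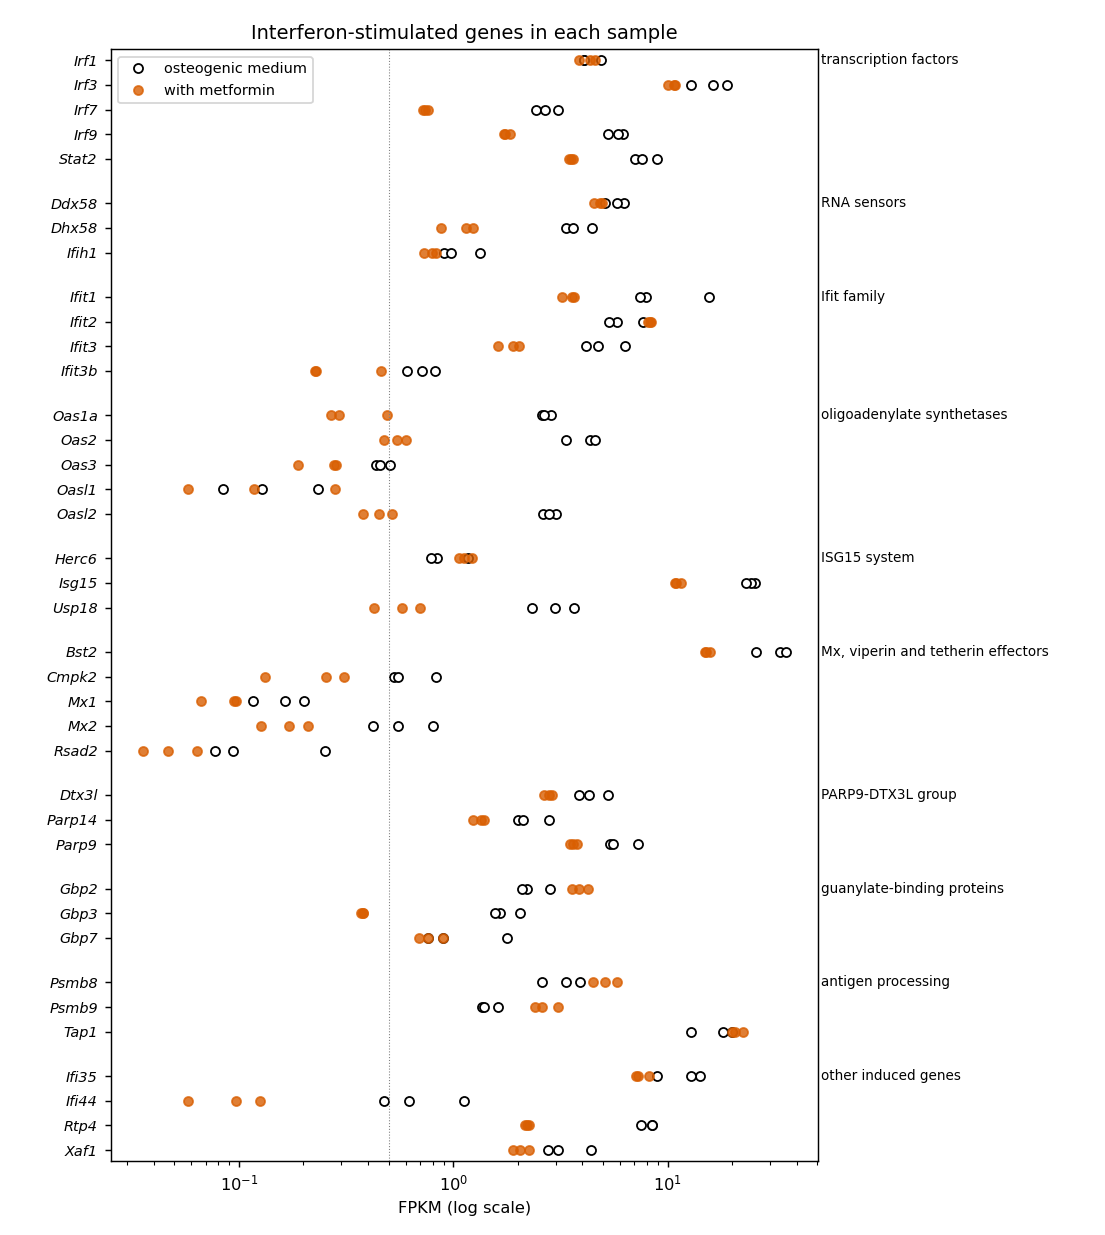
Points are the FPKM of each of the 38 genes in each of 3 samples in osteogenic medium (open) and 3 with metformin (filled), on a log scale and grouped by role, and the dotted line marks 0.5 FPKM. In 29 of the 38 genes all metformin samples lay below all samples in osteogenic medium, in 4 they lay above and in 5 the groups overlapped. Among the 31 tested genes the counts were 23 below and 4 above, beside 20.5% and 23.6% of all tested genes. No such share was taken for the 7 genes under the limit for testing.

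The RNA sensors differed among themselves. Dhx58 (LGP2), the helicase without signalling domains that modulates the other sensors, was at 4.42, 3.35 and 3.62 FPKM in osteogenic medium and 0.878, 1.23 and 1.15 FPKM with metformin. It was 3.497-fold lower on the means with metformin (log2 fold change -1.199, SE 0.12, adjusted p = 0.000877). It overlaps its antisense gene Dhx58os, which was lower too (-0.86, adjusted p = 0.0198), and how reads were split between the pair is uncertain. Ddx58 (RIG-I), which detects short RNA with a triphosphate end, was at 6.25, 5.82 and 5.12 FPKM in osteogenic medium and 4.53, 4.83 and 4.93 FPKM with metformin. Ifih1 (MDA5), which detects long double-stranded RNA, was at 1.33, 0.905 and 0.972 FPKM in osteogenic medium and 0.827, 0.792 and 0.729 FPKM with metformin. In both genes every metformin sample lay below every other sample, by a narrow margin, and neither passed the threshold (log2 fold change -0.22, SE 0.09, adjusted p = 0.137 for Ddx58 and log2 fold change -0.21, SE 0.11, adjusted p = 0.233 for Ifih1).

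The oligoadenylate synthetases included Oas2, the gene with the lowest log2 fold change of the 31, and all 3 that were tested were lower. These enzymes make the short oligoadenylates that switch on the ribonuclease RNase L. Oas2 was at 4.36, 3.35 and 4.58 FPKM in osteogenic medium and 0.476, 0.546 and 0.6 FPKM with metformin, 7.58-fold lower on the means (log2 fold change -1.72, SE 0.12, adjusted p = 0.000217). Oas1a was at 2.85, 2.61 and 2.65 FPKM in osteogenic medium and 0.294, 0.268 and 0.49 FPKM with metformin, 7.696-fold lower on the means (log2 fold change -1.46, SE 0.10, adjusted p = 0.000229), which rests on 98 to 103 reads in osteogenic medium and 11 to 18 reads with metformin. Oasl2, a synthetase-like protein with ubiquitin-like domains, was at 3.01, 2.63 and 2.802 FPKM in osteogenic medium and 0.38, 0.518 and 0.451 FPKM with metformin, 6.25-fold lower on the means (log2 fold change -1.39, SE 0.09, adjusted p = 0.000199). In all 3 genes the highest metformin sample was far below the lowest sample in osteogenic medium. The metformin means of Oas1a (0.351 FPKM) and Oasl2 (0.45 FPKM) were under the limit for testing. Both genes passed it through their level in osteogenic medium. Since 1 is added to FPKM before the log, the log2 fold changes of such low genes are smaller than those of FPKM itself. Oas1a shares 97.6% of 1861 transcript bases with Oas1g, which had at most 3 reads in a sample, so reads of the pair are uncertain. Oas3 had 56 to 75 reads in osteogenic medium and 29 to 39 with metformin and lay under the limit for testing, as did Oasl1 with 4 to 12 and 3 to 16 reads. The Oas3 groups did not overlap, and Oas3 was lower in the fit on reads (-0.92, adjusted p = 0.0346). The Oasl1 groups overlapped, and it was not called there (-0.09, adjusted p = 0.946).

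**Figure D3:**
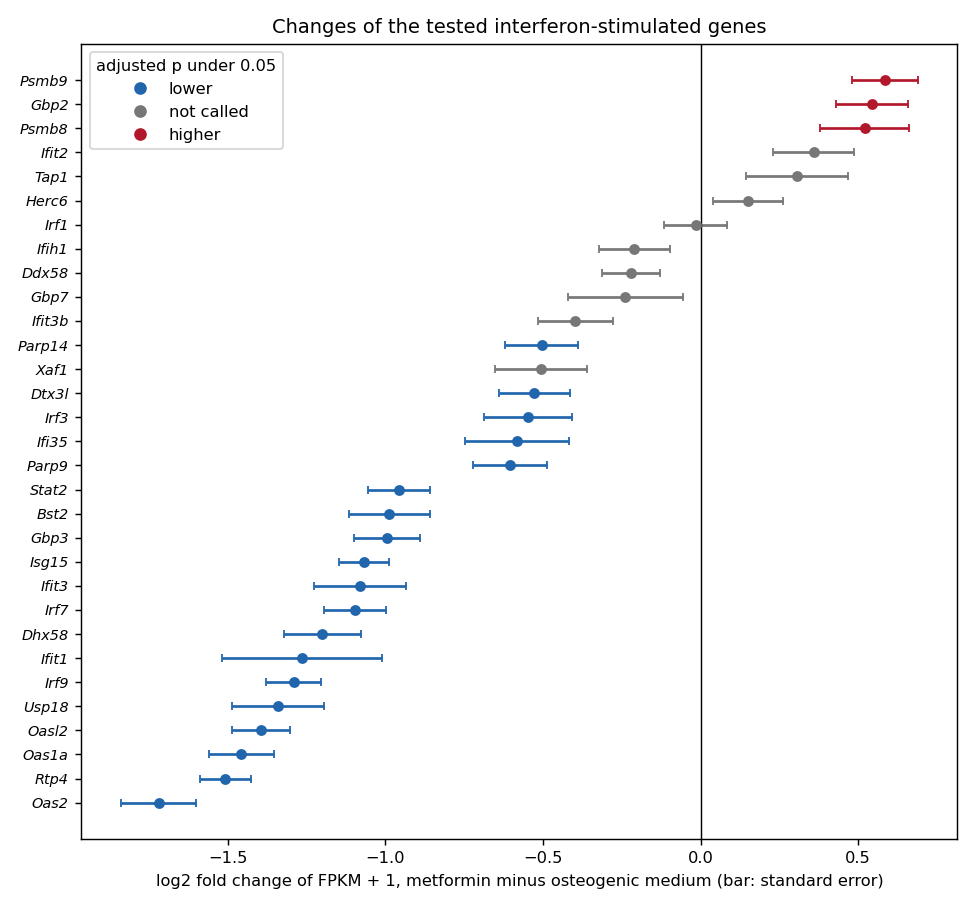
Points are log2 fold changes of FPKM + 1, metformin minus osteogenic medium, of the 31 tested genes, and bars are standard errors of the limma fit. From Oas2 at -1.72 upward, 19 genes are lower, and Gbp2, Psmb8 and Psmb9 at 0.52 to 0.59 are higher.

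In the ISG15 system 2 of 3 genes were lower. Isg15, the ubiquitin-like protein that is attached to others, was among the more abundant of the 38 genes, at 25.5, 24.5 and 23.1 FPKM in osteogenic medium and 11.5, 10.99 and 10.8 FPKM with metformin. It was 2.197-fold lower on the means with metformin, with little spread in either group (log2 fold change -1.07, SE 0.08, adjusted p = 0.000274). It shares 95.2% of 482 bases with the gene AC151275.1. Usp18, the protease that removes ISG15 and also restrains the receptor, was at 3.67, 2.34 and 2.97 FPKM in osteogenic medium and 0.578, 0.428 and 0.699 FPKM with metformin, 5.27-fold lower on the means (log2 fold change -1.34, SE 0.15, adjusted p = 0.00121). Herc6, the mouse ligase that attaches ISG15, had a log2 fold change of 0.15 (adjusted p = 0.38) and overlapping groups, from 0.788 to 1.17 FPKM and from 1.07 to 1.23 FPKM.

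The 4 neighbouring Ifit genes, whose products bind foreign RNA 5′ ends or hold back translation, included 2 that were lower and 1, Ifit2, whose metformin samples all lay above the others. Ifit1 was at 15.5, 7.95 and 7.41 FPKM in osteogenic medium and 3.21, 3.65 and 3.59 FPKM with metformin. The first osteogenic medium sample was the highest, and the decrease (log2 fold change -1.26, SE 0.25, adjusted p = 0.0138) had adjusted p-values of 0.0529 to 0.0595 without a metformin sample and of 0.000215, with a log2 fold change of -0.95, without that first sample. Ifit3 was at 6.34, 4.75 and 4.14 FPKM in osteogenic medium and 1.62, 1.89 and 2.03 FPKM with metformin, 2.75-fold lower on the means (log2 fold change -1.08, SE 0.15, adjusted p = 0.00303). Ifit3b, which shares 97.8% of 1700 bases with Ifit3, had 24 to 30 reads in osteogenic medium and 9 to 18 with metformin and was not called (-0.40, adjusted p = 0.0584), although it was lower by voom on the reads of the 12681 genes (-1.27, adjusted p = 0.0441) and with a GC correction (-0.47, adjusted p = 0.0207). In the fit on reads of 17468 genes it was not called (adjusted p = 0.0517), and the split of reads between these copies is uncertain. Ifit2 was at 7.698, 5.803 and 5.31 FPKM in osteogenic medium and 8.37, 8.27 and 8.08 FPKM with metformin. It did not pass the threshold (log2 fold change 0.36, SE 0.13, adjusted p = 0.0935), which it passed without the first osteogenic medium sample (0.50, adjusted p = 0.00144).

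The ratio of Ifit2 to Ifit3 in each sample is given as a description, since the pair was picked after its values were seen. It was 1.21, 1.22 and 1.28 in osteogenic medium and 5.17, 4.37 and 3.98 with metformin. In the deposited coordinates (GRCm38) the genes follow each other on the plus strand of chromosome 19, with Ifit2 at 34550694 to 34576419, Ifit3 at 34583531 to 34588731, Ifit3b at 34607970 to 34613401 and Ifit1 at 34640871 to 34650009. The ISRE core was found before Ifit1, Ifit3 and Ifit3b, and not in the window before Ifit2.

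The guanylate-binding proteins, large GTPases that attack the membranes of intracellular pathogens, also differed among themselves. Gbp3 was at 2.05, 1.65 and 1.56 FPKM in osteogenic medium and 0.37, 0.38 and 0.377 FPKM with metformin, 4.66-fold lower on the means with nearly equal metformin samples (log2 fold change -0.996, SE 0.10, adjusted p = 0.00103). Its metformin mean of 0.376 FPKM was under the limit for testing, which Gbp3 passed through its level in osteogenic medium. Gbp2, which lies 47393 bases further on the plus strand of chromosome 3, at 142620602 to 142638008, was at 2.83, 2.198 and 2.08 FPKM in osteogenic medium and 3.59, 3.87 and 4.24 FPKM with metformin. This was 1.64-fold higher on the means with metformin (log2 fold change 0.54, SE 0.11, adjusted p = 0.0161), and the groups did not overlap. The Gbp2 call was lost without the second osteogenic medium sample (adjusted p = 0.0581) and without any metformin sample (0.05 to 0.0762, the lowest just above the threshold). The ratio of Gbp2 to Gbp3, a pair picked in the same way, was 1.38, 1.33 and 1.34 in osteogenic medium and 9.68, 10.2 and 11.3 with metformin. Both genes hold the ISRE core shown above. Gbp7 was not called (-0.24, adjusted p = 0.399) and had overlapping groups, with its first osteogenic medium sample at 1.78 FPKM and the other two at 0.764 and 0.897 FPKM.

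**Figure D4:**
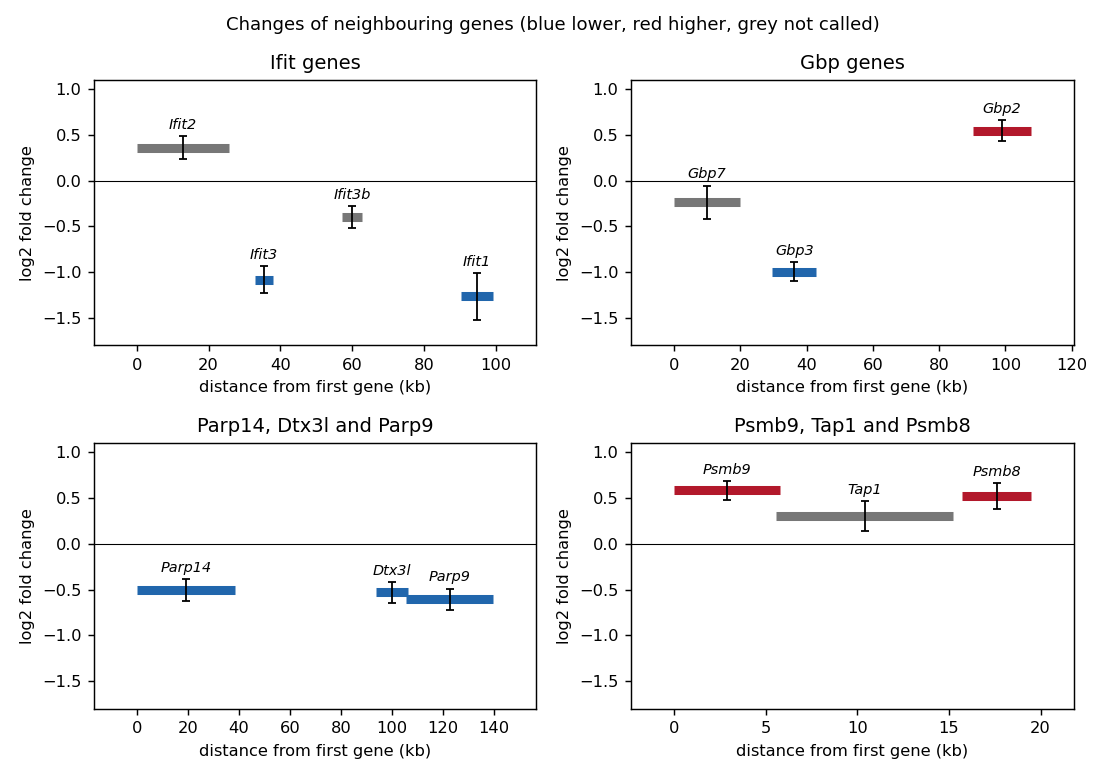
Bars mark the extent of neighbouring genes, as distance from the first gene of the group in kilobases, at the height of their log2 fold change, and whiskers are standard errors. Ifit2 at 0.36 and Gbp2 at 0.54 lie above the neighbours Ifit3 at -1.08 and Gbp3 at -0.996, while the Parp14, Dtx3l and Parp9 group lies between -0.50 and -0.60 and the Psmb9, Tap1 and Psmb8 group between 0.31 and 0.59.

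Of the 3 antigen processing genes, 2 were higher and none was lower. Psmb9, an inducible catalytic subunit of the immunoproteasome, was at 1.36, 1.39 and 1.61 FPKM in osteogenic medium and 2.603, 3.07 and 2.399 FPKM with metformin, 1.85-fold higher on the means with metformin (log2 fold change 0.59, SE 0.10, adjusted p = 0.00875). Psmb8, another such subunit, was at 2.602, 3.903 and 3.37 FPKM in osteogenic medium and 5.08, 5.804 and 4.503 FPKM with metformin, 1.56-fold higher on the means (log2 fold change 0.52, SE 0.14, adjusted p = 0.0401). Both sets of metformin samples lay above all others. Psmb9 was called in each of the 6 fits without 1 replicate, but Psmb8 in 2, with adjusted p-values of 0.0781 without the third osteogenic medium sample and 0.0727 to 0.151 without a metformin sample. Tap1, which carries peptides into the endoplasmic reticulum, had 12.9 to 20.1 FPKM in osteogenic medium, the first sample lowest, and 19.9 to 22.5 FPKM with metformin, and was not called (0.31, adjusted p = 0.225). The 3 genes are adjacent on chromosome 17, between 34181988 and 34201454, and Psmb9 and Tap1 overlap at their starts on opposite strands.

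The PARP9-DTX3L group, an ADP-ribosyltransferase with its partner ubiquitin ligase and their relative Parp14, was lower in 3 of 3 genes, with log2 fold changes of -0.50 to -0.60. Parp9 was at 7.27, 5.39 and 5.57 FPKM in osteogenic medium and 3.496, 3.61 and 3.77 FPKM with metformin (log2 fold change -0.60, SE 0.12, adjusted p = 0.0122). Dtx3l was at 5.29, 4.28 and 3.85 FPKM in osteogenic medium and 2.799, 2.88 and 2.65 FPKM with metformin (log2 fold change -0.53, SE 0.11, adjusted p = 0.0183). Parp14 was at 2.801, 2.003 and 2.12 FPKM in osteogenic medium and 1.23, 1.39 and 1.34 FPKM with metformin (log2 fold change -0.50, SE 0.12, adjusted p = 0.0232). In each of them the groups did not overlap. Without a metformin sample Parp14 and Dtx3l lost the call each time (adjusted p = 0.0789 to 0.0973 and 0.0686 to 0.0811), Parp9 lost it without the first or second (0.0614 and 0.0586), and Dtx3l lost it also without the second osteogenic medium sample (0.0513). Parp9 and Dtx3l lie head to head, overlap by 681 bases and share 367 identical transcript bases.

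Bst2 (tetherin), which holds budding virus at the cell surface, was the most abundant of the 38 genes in osteogenic medium, at 25.8, 33.3 and 35.5 FPKM in osteogenic medium and 14.9, 15.8 and 15.1 FPKM with metformin. It was 2.07-fold lower on the means with metformin, with no overlap (log2 fold change -0.99, SE 0.13, adjusted p = 0.00252). The other effectors of its role had few reads. Mx2, an antiviral dynamin-like GTPase, had 30 to 53 reads in osteogenic medium and 10 to 15 with metformin, and Mx1, which shares 95.3% of 843 bases with it, had 8 to 15 and 5 to 8 reads. Cmpk2, a mitochondrial nucleotide kinase, had 45 to 63 and 12 to 25 reads, and its neighbour Rsad2 (viperin) had 7 to 20 and 3 to 6 reads. In FPKM the groups did not overlap in any of these 4 genes, and they were not tested in the fit of FPKM. Among all tested genes 20.5% had every metformin sample below the others. No such share was taken for genes under the limit for testing. In the fit on reads Mx2 (-1.75, adjusted p = 0.0163) and Cmpk2 (-1.50, 0.0246) were lower, and Mx1 (0.256) and Rsad2 (0.225) were not called.

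Among the other induced genes, Rtp4, a Golgi chaperone of receptors, was at 8.45, 8.41 and 7.54 FPKM in osteogenic medium and 2.25, 2.22 and 2.17 FPKM with metformin, 3.68-fold lower on the means (log2 fold change -1.51, SE 0.08, adjusted p = 9.4e-05). Its annotated span overlaps Masp1 on the opposite strand, which had a mean of 18.5 FPKM and was higher with metformin (0.53, adjusted p = 0.00671), opposite to the change of Rtp4. Ifi35, a small inducible protein, was at 8.91, 14.1 and 12.9 FPKM in osteogenic medium and 8.14, 7.15 and 7.31 FPKM with metformin, and its first osteogenic medium sample was near the metformin samples (log2 fold change -0.58, SE 0.16, adjusted p = 0.0467). Ifi35 was called in only 1 of the 6 fits without 1 replicate, with adjusted p-values of 0.113 and 0.124 without the third and the second osteogenic medium sample and 0.108 to 0.157 without a metformin sample. Ifi44 had 61 to 125 reads in osteogenic medium and 7 to 15 with metformin. It was under the limit of the FPKM fit and was lower in the fit on reads (-2.88, adjusted p = 0.00551). Xaf1, an inhibitor of the caspase inhibitor XIAP, missed the threshold narrowly (-0.51, adjusted p = 0.0503), at 2.76 to 4.37 FPKM and 1.91 to 2.26 FPKM, and passed it without the first (0.0193) or the second (0.0472) osteogenic medium sample and in the fit on reads (0.039).

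The calls differed in how they held when 1 replicate was left out. Of the 22 called genes, 14 were called in all 6 such fits: Psmb9, which was higher, and 13 that were lower, namely Oas2, Rtp4, Oas1a, Oasl2, Usp18, Irf9, Dhx58, Irf7, Ifit3, Isg15, Gbp3, Bst2 and Stat2. The number of higher genes dropped from 3 to 1 without any 1 of the metformin samples. Calls over all tested genes dropped in these fits as well. The share called higher went from 13.2% to between 7.4% and 7.77%, and the share called lower from 9.28% to between 3.9% and 4.2%.

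The remaining genes of the pathway were read from a list of 155 names, of which 153 were in the table and 102 were tested. Of these, 20 (19.6%) were lower and 10 (9.8%) higher, beside 9.28% and 13.2% of all tested genes, and the median log2 fold change was -0.06. The numbers depended on single libraries. Without a metformin sample 8 to 10 (7.84% to 9.8%) were lower and 4 (3.92%) higher, beside 3.9% to 4.2% and 7.4% to 7.77% of all tested genes. Without the first osteogenic medium sample 31 (30.4%) were lower and 20 (19.6%) higher, beside 20.4% and 23.4%, and without the second 16 (15.7%) and 6 (5.88%), beside 5.84% and 9.9%.

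Few or no reads were assigned to the ligands. None of the 21 interferon genes listed had more than 3 reads in a sample, and 16, Ifnb1 included, had 0 in every sample, which allows up to 3 reads per library and covers counting error only. Several of them share long stretches of transcript sequence, such as 95.2% of 564 bases between Ifna6 and Ifna15 and 97.1% of 582 between Ifnl2 and Ifnl3, and how reads of such genes were counted is not given in the sources used here. Trex1, an effector on the list that shares 99.9% of 1003 bases with the overlapping Atrip, is also listed at 0 in every sample. The receptor chains were expressed, and none of the 5 tested was called. Ifnar1, the type I receptor's signalling chain, was at 12.4 to 16.04 FPKM in osteogenic medium and 13.5 to 14.4 FPKM with metformin (0.04, adjusted p = 0.858), and Ifnar2 at 9.23 to 12.2 and 9.49 to 10.02 FPKM (-0.16, adjusted p = 0.372). Ifngr1 and Ifngr2, the interferon gamma receptor, had log2 fold changes of -0.07 and 0.02. None of the 3 JAK kinases was called: Jak1, Jak2 and Tyk2 had log2 fold changes of 0.08, -0.41 and -0.11. For Jak2 all metformin samples lay below the others, and the first osteogenic medium sample was the highest. None of the 4 tested genes among the other IRF factors was called either.

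**Figure D5:**
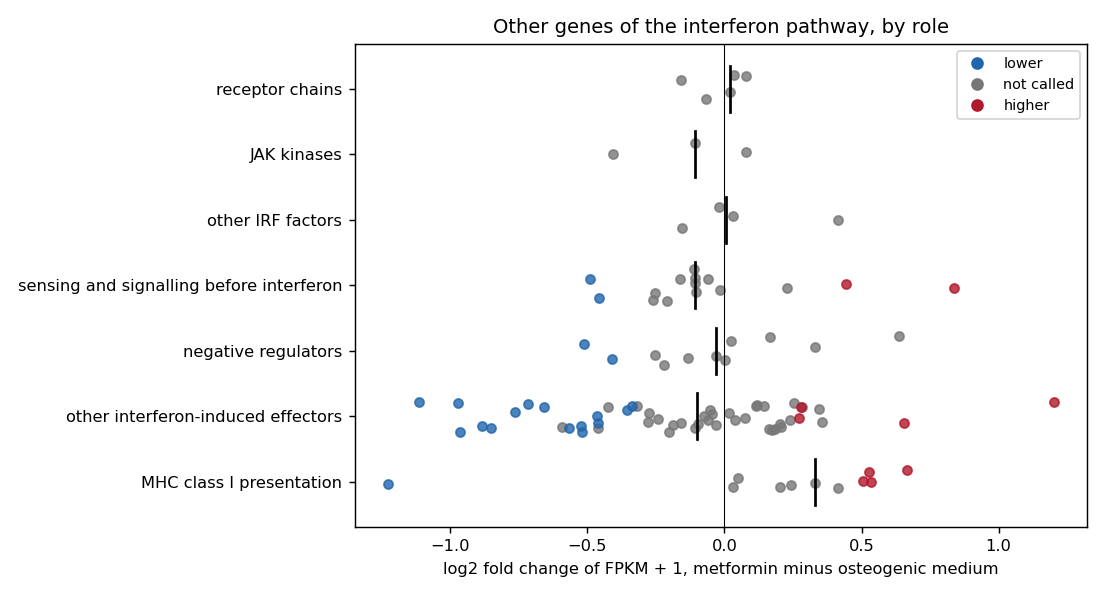
Points are log2 fold changes of FPKM + 1, metformin minus osteogenic medium, of tested genes of the interferon pathway outside the 38, by role, with black bars at the medians. Receptor chains and JAK kinases, of which 3 are drawn, have no called gene, the other effectors reach from -1.11 to 1.202, and MHC class I genes lie at or above 0.03 except H2-T23 at -1.23.

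Of 15 tested genes for sensing and for signalling upstream of interferon, 2 (13.3%) were higher and 2 (13.3%) lower. Among all tested genes 13.2% were higher and 9.28% lower. Mb21d1 (cGAS), the sensor of cytosolic DNA, was at 2.06, 1.38 and 1.504 FPKM in osteogenic medium and 3.88, 3.604 and 3.61 FPKM with metformin (0.84, adjusted p = 0.00334), while Tmem173 (STING), the adaptor next to it in the pathway, was at 4.496, 5.41 and 5.13 FPKM in osteogenic medium and 3.35, 3.37 and 3.10 FPKM with metformin (-0.49, adjusted p = 0.0101). The adaptor Traf3 was higher (0.44) and Trim25, a ubiquitin ligase linked to RIG-I, was lower (-0.46). Of the 6 fits without 1 replicate, Mb21d1 was called in 6, Tmem173 in 4, Trim25 in 3 and Traf3 in 1. Among 11 negative regulators, 0 were higher and 2 (18.2%) were lower, the phosphatase Ptpn1 (-0.51) and the STAT inhibitor Pias1 (-0.41). Ptpn1 and Pias1 were each called in 2 of the 6 fits without 1 replicate. In 3 of the 11 every metformin sample lay above the others and in 4 every one lay below, beside 23.6% and 20.5% of all tested genes. Socs3 had the highest log2 fold change of the 11 and was not called (0.64, adjusted p = 0.0769).

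Of 52 other tested effectors, 15 (28.85%) were lower and 4 (7.69%) higher, beside 9.28% and 13.2% of all tested genes. The lower ones were the GTPases Irgm2 (-1.11) and Igtp (-0.76), which overlap each other, Oas1b (-0.97), Oas1c (-0.34), Slfn8 (-0.97), Slfn2 (-0.85), Ifi27 (-0.88), Trim34a (-0.72), Trim30a (-0.57), the RNA editing enzyme Adar (-0.66), Ifitm3 (-0.52) and Ifitm1 (-0.52), which hinder virus entry, Tor3a (-0.47), Nampt (-0.46) and Lgals3bp (-0.35). Ifitm3 was by far more abundant than any of the 38 genes, at 460, 567 and 485 FPKM in osteogenic medium and 351, 353 and 343 FPKM with metformin. The higher ones were Slfn9 (1.202), Lgals9 (0.65), Samhd1 (0.28) and Pml (0.27). Irgm2, Igtp, Oas1b, Slfn8, Slfn2, Ifi27, Adar, Slfn9 and Lgals9 were called in all 6 fits without 1 replicate. Trim34a, Lgals3bp and Samhd1 were called in only 1 of them, and the other effectors named here in 2 to 4. Slfn9, at 4.15, 2.47 and 2.14 FPKM in osteogenic medium and 7.27, 7.61 and 8.597 FPKM with metformin, shares 96.7% of 725 bases with its relative Slfn8, which changed in the opposite direction. The metformin means of Slfn8 (0.274 FPKM) and Slfn2 (0.403 FPKM) were under the limit for testing. Both genes passed it through their level in osteogenic medium.

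Of 11 tested genes of MHC class I presentation, 4 (36.4%) were higher, as Psmb8 and Psmb9 were, and 1 (9.09%) was lower. Among all tested genes these shares were 13.2% and 9.28%. H2-K1 was at 35.3, 42.6 and 33.8 FPKM in osteogenic medium and 54.4, 55.7 and 51.3 FPKM with metformin (0.53, adjusted p = 0.0162), H2-D1 at 120, 157 and 132 FPKM in osteogenic medium and 204, 198 and 188 FPKM with metformin (0.53, adjusted p = 0.0217), and Nlrc5, the transactivator of class I genes, at 0.522, 0.443 and 0.503 FPKM in osteogenic medium and 1.41, 1.26 and 1.42 FPKM with metformin (0.67, adjusted p = 0.00333). The mean of Nlrc5 in osteogenic medium was 0.49 FPKM, under the limit for testing, so it passed through its level with metformin. The peptidase Erap1 was higher too (0.50, adjusted p = 0.0355) and overlaps Cast on the opposite strand, which was also higher. Of the 6 fits without 1 replicate, H2-K1 was called in 3, H2-D1 and Erap1 in 2 and Nlrc5 in 6. B2m, the light chain, was not called (0.41, adjusted p = 0.0819). In 8 of the 11 genes every metformin sample lay above the others, beside 23.6% of all tested genes. In Tap2 and Psmb10 the groups overlapped. H2-T23, a nonclassical class I gene, was the lower one, at 18.01, 21.3 and 19.5 FPKM in osteogenic medium and 8.01, 8.15 and 7.23 FPKM with metformin (-1.23, adjusted p = 0.000296). Class I genes share long stretches of sequence, 96.4% of 280 bases between H2-D1 and H2-Q7 and 96.2% of 364 between H2-T23 and H2-Q1, so the split of reads among them is uncertain.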

How the data were processed

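RNA was sequenced from MC3T3-E1 cells, 3 samples without and 3 with metformin, grouped by their labels. The deposited values are FPKM made by the authors, since each value times the listed gene length is a whole multiple of 1 step per sample (100% of values above 0, tolerance 0.001), which recovers reads. The submitters' processing notes name Bowtie 0.12.2 with mm8 and mm9, whereas the coordinates of 53499 of the 54532 genes, and of 37 of the 38 members, equal those of GENCODE M21 (GRCm38), so the build is stated from that match. The counting tool is not given in the sources used here. The authors tested with DESeq2. The table has 0 further columns with values of samples.

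Metformin was compared with osteogenic medium by limma 3.58.1 (R 4.3.3, trend, no block) on log2(FPKM + 1) for genes with a mean of at least 0.5 FPKM, with Benjamini-Hochberg adjustment over all of them and a threshold of 0.05. Members, pathway genes and markers were listed with earlier results of these data known, so no list was tested as a whole. Members are named by role, with all samples' values for those that passed and for factors and sensors, and pathway genes where they passed. Some listed genes are not reported here by name. Shared sequence with transcripts of other genes was searched with BLAST+ 2.17.0 (95% identity, 200 bases or more), and promoter windows came from RefSeq. On simulated data with 200 of 12681 genes changed, the fit called 34 of 50 genes at a log2 fold change of -1 and 49 of 50 at -2, whose median estimate was -1.56. It called 45 of 50 at 1 and 50 of 50 at 2. The simulated libraries all had the same spread, and none stood apart as the first osteogenic medium sample did. Alternatives were another pseudocount (0.1), scaling by total reads, no filter, at least 10 reads in every sample, voom on the reads, a GC correction (spline with 5 degrees of freedom), a replicate block and leaving out each replicate. The voom fit of genes with at least 10 reads in sum was added after the data were seen. Depth was 18399861 to 20652437 reads (median 18792236) in osteogenic medium and 19256672 to 22111790 (median 19896720) with metformin. The smallest median chi-square per gene between 2 replicates was 1.18, against 0.455 under counting error alone, so no library was counted as a second sequencing of another. This value cannot show whether the samples came from separate cultures. Figures were drawn with matplotlib 3.10.9.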

Additional observations from a re-analysis of the deposited data

How the results depend on the processing

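The number of lower interferon-stimulated genes (19 of 31) ranged from 16 with the replicate block to 24 in the added voom fit on reads, and from 13 to 20 when 1 replicate was left out, within 1.5 times each, and the GC correction gave 22 lower and 4 higher. Higher genes went from 3 to 1 with no filter and to 1 with the replicate block, and from 1 to 4 over the fits without 1 replicate. Their median log2 fold change of -0.583 moved to -0.748 with a pseudocount of 0.1 and -0.783 with voom, and to -0.977 in the added voom fit, which takes in all 38 genes instead of 31, and ranged from -0.69 (without the first osteogenic medium sample) to -0.565. Irf1, which was not called, turned to 0.0553 without the third osteogenic medium sample and to 0.0394 without the first metformin sample, in a range that began at -0.0593. With the replicate block, pathway genes went from 10 to 5 higher and from 20 to 12 lower, and all genes from 1177 to 698 lower. With the GC correction, 31 pathway genes and 2434 of all genes were lower, and 1890 with block and GC correction together. That correction also turned the split of all calls from 58.7% to 45.9% higher (47.4% with the block), and shifted the median of all genes by -0.054. Without 1 replicate, 4 to 20 pathway genes were higher and 8 to 31 lower, and 938 to 2969 of all genes were higher and 495 to 2590 lower, with the most calls without the first osteogenic medium sample. The cause of these shifts was not tested. Same-numbered samples did not deviate together (correlations of -0.0533, 0.000265 and -0.0549), so the block pairs nothing that the labels name. Counts of 3 to 75 reads limit Oas3, Oasl1, Mx1, Mx2, Rsad2 and Cmpk2.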
